A study of Mus musculus with 2 samples.

Results

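The 7 genes of natriuretic peptide and cyclic GMP signalling described here, Npr1, Npr2, Npr3, Prkg1, Gucy1a1, Gucy1a2 and Gucy1b1, were measured in nuclei of mouse perivascular fat. All 7 were found by symbol among the 32285 genes listed for both libraries. The symbols were chosen with earlier values of these libraries in view, Npr3 for its levels across adipocyte states and the 2 libraries and the others for mural cells and the libraries, so the levels below are a description with no test. Nuclei came from snap-frozen mesenteric perivascular fat, taken at an age of 11 weeks. One library was made from mice of genotype Prdm16flox (the flox control), and the other from mice labelled Prdm16flox, AdopiQCre+ (labelled Prdm16 cKO), so that both groups carry the floxed Prdm16 allele and only the cKO-labelled mice carry Cre, which is read here as driven by the adiponectin promoter and hence meant for adipocytes. The labels give neither the sex of the mice nor how many were pooled. Each genotype had 1 library, so no difference has a replicate check and none has a p-value.

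Natriuretic peptides are hormones of the heart and endothelium that relax vessels and, in adipocytes, promote lipolysis. Npr1 and Npr2 encode receptors with an intracellular guanylyl cyclase domain, which make cyclic GMP when atrial and B-type peptide (Npr1) or C-type peptide (Npr2) binds. Npr3 encodes the clearance receptor, which lacks the cyclase domain, takes peptides into the cell and couples to inhibitory G proteins. Nitric oxide reaches the same messenger by another route, through soluble guanylyl cyclase, a dimer of an alpha subunit (Gucy1a1 or Gucy1a2) and the beta subunit (Gucy1b1). Prkg1 encodes cyclic GMP-dependent protein kinase 1, the main effector of the messenger in smooth muscle.

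After filtering, 10532 control nuclei with 92826932 unique molecular identifiers (UMIs, counts of captured RNA molecules) and 7374 cKO-labelled nuclei with 62139712 UMIs were kept, with medians of 7043 and 6497 UMIs per nucleus. They fell into 27 clusters, made without the 7 genes, of which 26 were grouped into 16 classes by markers. Levels are CPM, the UMIs of a gene summed over a class in a library and scaled to a fixed total, and every interval is a 95% interval that covers counting error only. The 2 libraries shared 28 cell barcodes. Prdm16 itself was not lower in the cKO-labelled adipocyte-like nuclei, at 16.6 CPM with flox alone and 22.3 CPM with the cKO label (log2 ratio 0.42, 0.29 to 0.56). These 3' counts need not cover the deleted part of the gene, so they do not check the label, and directions below are those of the library as labelled. Adipocyte-like nuclei held all 10 adipocyte markers in both libraries, with summed levels of 10986 and 10666 CPM. Signal of those markers was also present in every other class, at 18.0 to 43.3% of the adipocyte-like level in the control and 20.9 to 55.5% in the cKO-labelled library.

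The 7 genes had different places in the tissue. Npr3 was highest in adipocyte-like nuclei, while Prkg1, Gucy1a1 and Gucy1a2 were highest in mural nuclei, the pericyte-like and smooth muscle-like classes of the vessel wall. Gucy1b1 was about equally high in pericyte-like and lymphatic endothelial-like nuclei. Npr1 was highest in vascular endothelial-like, mesothelial-like and fibroblast-like nuclei, and Npr2 was low and spread over most stromal classes.

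**Figure D1:**
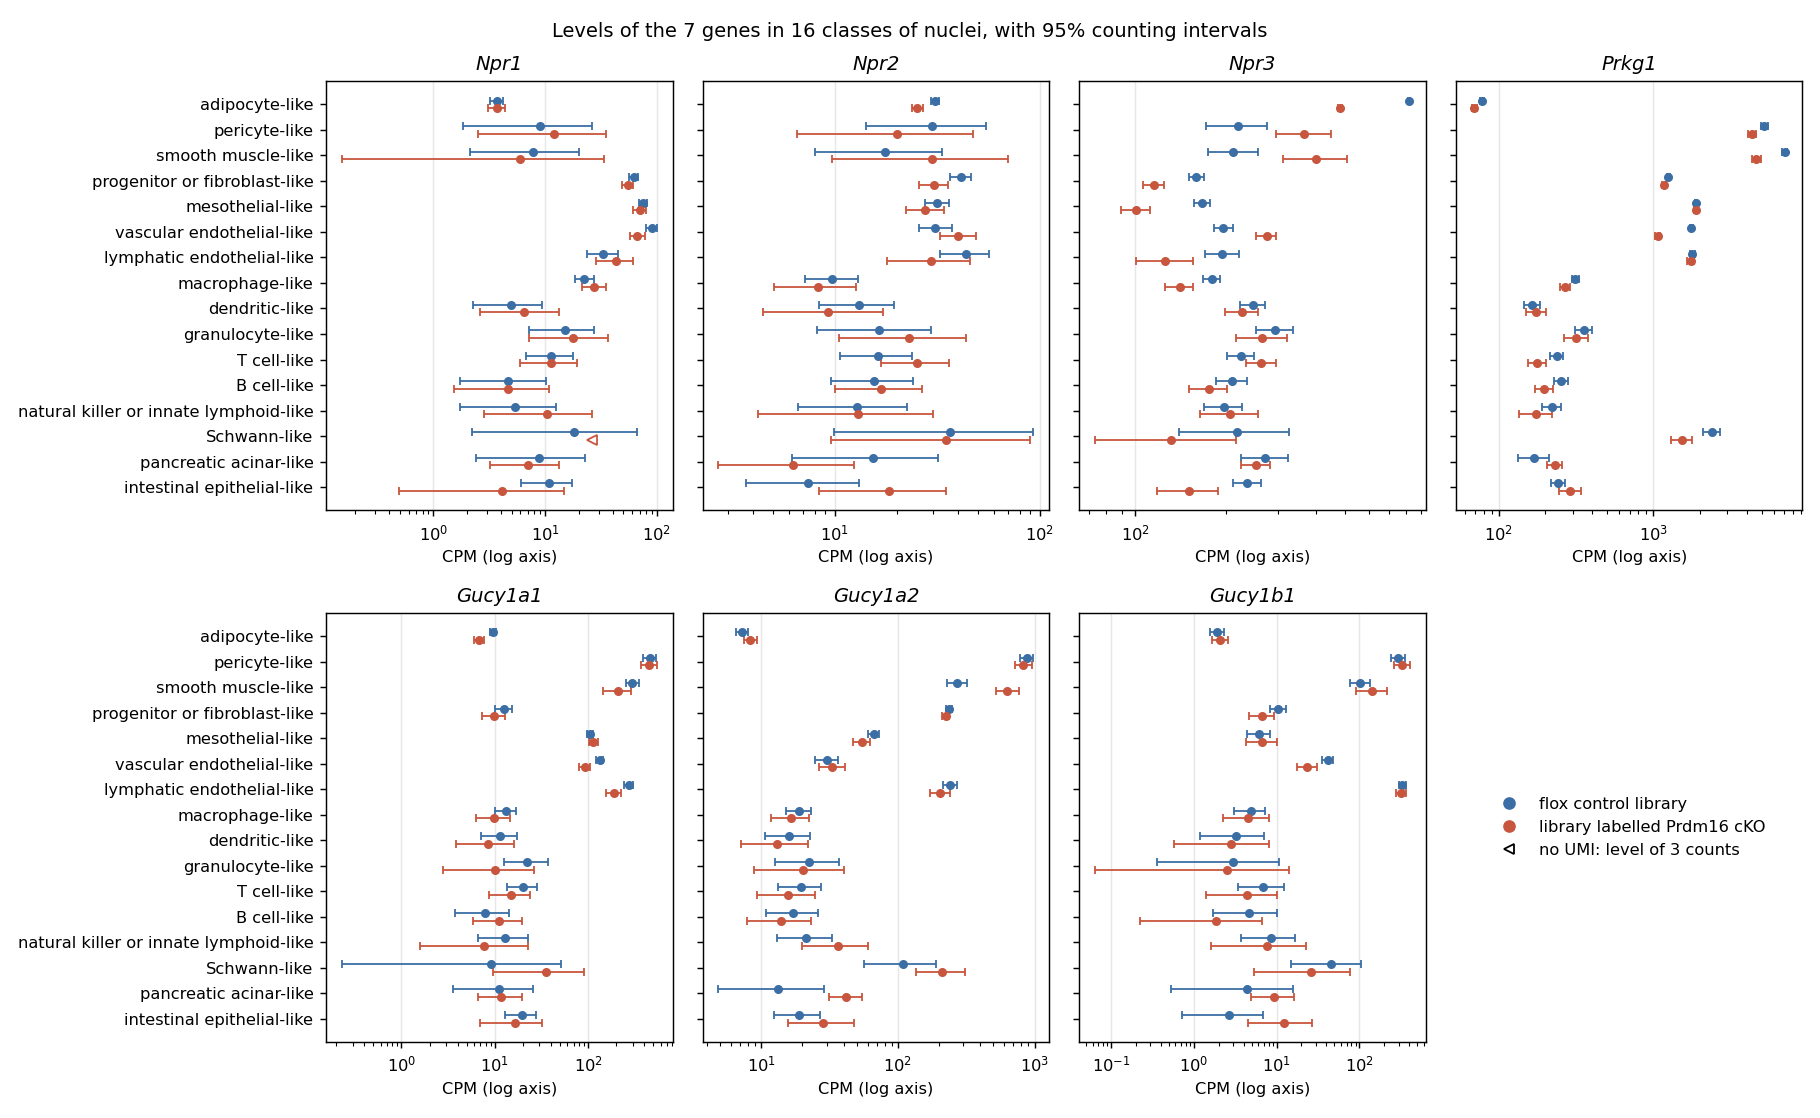
Level of each gene in 16 classes of nuclei (CPM of summed UMIs, logarithmic axis, each panel with its own scale), with 95% counting intervals; blue points are the flox control library and red points the library labelled Prdm16 cKO. Npr3 peaks in adipocyte-like nuclei (817 and 482 CPM), where Prkg1 has its lowest level (77.9 and 69.4 CPM).

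In adipocyte-like nuclei Npr3 was the member that differed most between the libraries. It stood at 817 CPM (810.0 to 825) in 4440 control nuclei and at 482 CPM (475 to 489) in 2939 cKO-labelled nuclei, and the intervals did not overlap. As a log2 ratio, cKO-labelled over control, this was -0.76 (-0.79 to -0.74), a level 1.70-fold lower. Both libraries had similar depth in this class, with medians of 12124.5 and 11907 UMIs per nucleus. A difference past 1.5-fold in the lower direction was found in 3.30% of the 15412 genes with at least 50 UMIs in this class, and in the higher direction in 5.46%. Of the 7 members, all with at least 50 UMIs here, 1 was past 1.5-fold lower and 0 were past it higher. Since Npr3 was chosen with this difference known, nothing is read from that count. The median log2 ratio of the 7 members was -0.17, beside 0.03 over all genes tested.

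The lower level was spread over nuclei and did not rest on a few of them. The median control nucleus held 5 Npr3 UMIs and the median cKO-labelled nucleus 3, with 90th percentiles of 28.1 and 16 and maxima of 186 and 115. The nucleus with the most Npr3 UMIs gave 0.389% of the control sum and 0.610% of the cKO-labelled sum. The share of nuclei with an Npr3 UMI was 91.2% in the control against 84.9%. After each nucleus was thinned to 1000 UMIs these shares were 43.8% (42.3 to 45.3%) and 30.4% (28.7 to 32.0%). In B cell-like nuclei, which are not expected to express the gene and had medians of 3724 and 4165 UMIs, the unthinned shares were 56.2% and 44.5% and the thinned shares 22.1% and 9.94%. Adipocyte-like nuclei thus stood above that background in both libraries at equal depth.

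Npr3 lies on the minus strand of chromosome 15 at chr15:11839896-11907287 (mm10, GENCODE M21 positions), a protein-coding gene 67.4 kb long, and the counted gene Gm5144 lies antisense within it. The handling of strand is not given, and how reads were divided between the 2 genes was not checked. The 250 bases before its RefSeq start (GRCm38.p6, chr15:11907372-11907621, minus strand) are shown because Npr3 differed most of the members in adipocyte-like nuclei.

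Npr3: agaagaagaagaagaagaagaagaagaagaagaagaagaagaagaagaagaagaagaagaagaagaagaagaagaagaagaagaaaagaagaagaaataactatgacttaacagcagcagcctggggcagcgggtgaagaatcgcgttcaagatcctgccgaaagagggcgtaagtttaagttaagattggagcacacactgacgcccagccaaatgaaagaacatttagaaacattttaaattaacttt

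The sequence opens with a run of 28 copies of GAA. Of 32851 RefSeq windows, searched only over the 250 bases before a start, 0.0122% hold a GAA run as long on either strand. The GC content of the printed bases was 38.8%, beside a median of 52.4% over all windows. Searched on both strands, the Npr3 window held no GC box (GGGCGG), no TATA box (TATAAA), no DR1 element (a site type bound by PPAR and RXR receptors) and no CArG box (the serum response factor site of muscle genes), so no base is capitalised. The shares of all windows with these motifs were 32.7%, 12.4%, 0.0335% and 1.47%.

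Adipocyte-like nuclei formed 5 clusters, and Npr3 was lower in the cKO-labelled library in all 5. Cluster 0 (leading genes Dnah3, Scara5 and Slc2a3) stood at 892 CPM (880.2 to 904) with flox alone and 542 CPM (526 to 557) with the cKO label (log2 ratio -0.72, -0.77 to -0.68). Cluster 3 (Sntg2, Plagl1, Peg3, Ffar2, Ccdc152) had the highest level in both libraries, at 1059 CPM (1043 to 1076) and 584 CPM (562 to 606) (log2 ratio -0.86, -0.92 to -0.80). Cluster 8 (4930402D18Rik, E2f2, Npas2, Gm28905, Triqk) stood at 569 CPM (552 to 588) and 324 CPM (302 to 346) (log2 ratio -0.82, -0.93 to -0.71). These 3 clusters were past 1.5-fold lower, as were 2.61%, 4.98% and 4.17% of all genes tested in clusters 0, 3 and 8.

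Clusters 1 and 5, where 2.05% and 2.28% of all genes were past 1.5-fold lower, differed less in Npr3. Cluster 1 (Nrep, Ciart, Ntsr2, Tent5a, Bhlhe40) stood at 603 CPM (587 to 619) and 539 CPM (525 to 553) (log2 ratio -0.16, -0.21 to -0.11). Cluster 5 (Hephl1, Elovl6, Ppp1r3b, Gm50337), in which the fatty acid elongase Elovl6 and the citrate-cleaving enzyme Acly had their highest levels of the 5 clusters, stood at 449 CPM (429 to 469) and 376 CPM (365 to 388) (log2 ratio -0.25, -0.33 to -0.18). In the control the order from high to low was 3, 0, 1, 8 and 5, with overlapping intervals only for clusters 1 and 8. In the cKO-labelled library it was 3, 0, 1, 5 and 8, with overlapping intervals for clusters 0 and 1. The highest cluster exceeded the lowest 2.36-fold in the control and 1.80-fold in the cKO-labelled library. The split into clusters matters for these ratios: when nuclei with 2% mitochondrial UMIs or more were left out and the rest clustered anew, clusters 3 and 8 were both best matched by 1 new cluster with a ratio of -0.49, and the best match of cluster 0 had -0.32. With the same nuclei left out and the clusters kept, the ratios were -0.72 in cluster 0, -0.86 in cluster 3 and -0.81 in cluster 8.

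**Figure D2:**
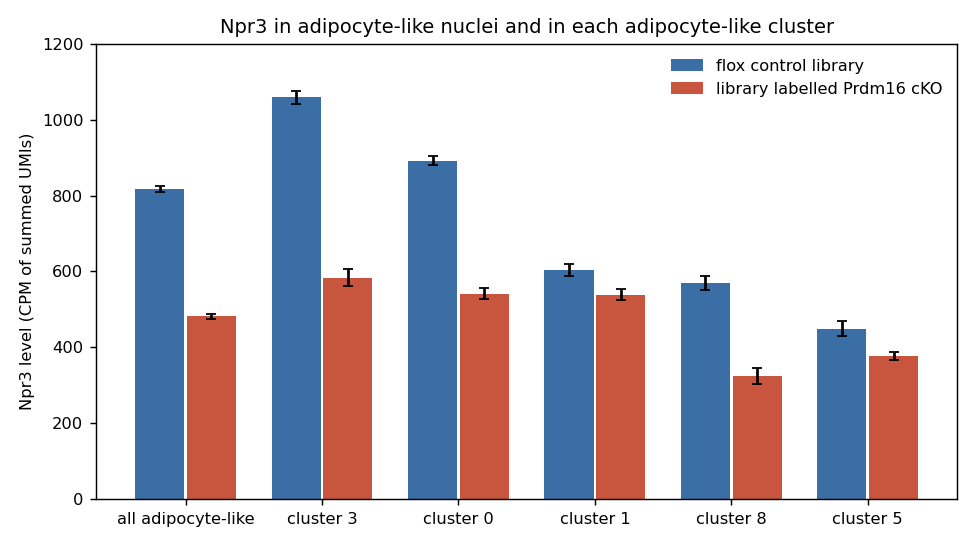
Npr3 level (CPM of summed UMIs, bars from 0) in all adipocyte-like nuclei and in each of the 5 adipocyte-like clusters, with 95% counting intervals; blue bars are the flox control library and red bars the library labelled Prdm16 cKO. The red bar is the lower one in every pair, by the most in cluster 3 (1059 and 584 CPM) and the least in cluster 1 (603 and 539 CPM).

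The libraries also differed in the shares of these clusters. Cluster 0 made up 41.0% of the class in the control against 24.2% with the cKO label, and cluster 3, the highest in Npr3, held 25.4% and 11.3%. Cluster 5, the lowest in the control, held 6.64% and 29.3%, cluster 1 held 15.2% and 29.0%, and cluster 8 held 11.7% and 6.19%. With the control shares given to both libraries, the log2 ratio of Npr3 was -0.67, and with the cKO-labelled shares -0.48. Changing only the shares, with each cluster kept at its control level, gave -0.28. With these clusters the difference was thus present both within them and in their shares. Any difference in state between libraries inside a cluster counts here as within it, and the ratios within clusters changed when nuclei were clustered anew.

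Genes described with Npr3 in adipocyte states did not all follow it inside a cluster. In cluster 3, Tshr, the thyrotropin receptor, went from 1911 to 1404 CPM (log2 ratio -0.44) and the imprinted gene Peg3 from 289 to 176 CPM (-0.72), while the imprinted gene Nnat, neuronatin, went from 647 to 1083 CPM (0.74). In cluster 0 the log2 ratio was -0.30 for Tshr, -0.04 for Peg3 and -0.16 for Nnat, beside -0.72 for Npr3. Adipoq, the adiponectin gene, stood at 202 and 219 CPM in cluster 0 and at 438 and 427 CPM in cluster 3. Across the 16 classes and both libraries (32 points, which share library, depth and free RNA), the genes with patterns most like Npr3 among 12088 genes were Tshr, Prkar2b and Ankef1, with Pearson correlations of log2(CPM + 1) of 0.89, 0.86 and 0.85. All 3 were highest in adipocyte-like nuclei.

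Outside adipocyte-like nuclei, Npr3 was found in every class, at 159.8 to 291 CPM in the control and 100.4 to 400.5 CPM in the cKO-labelled library. They were set beside the share of adipocyte markers in the class. Multiplying the adipocyte-like Npr3 level of a library by that share gave a value within 1.5-fold of the measured one in 29 of 30 pairs of class and library. In the control the measured levels lay close to their median of 212 CPM, so there this closeness does not show that they followed the share. The ratio of measured to computed value had a median of 0.966 (0.749 to 1.28) in the control and 1.15 (0.764 to 1.85) in the cKO-labelled library. Unnamed cluster 4 (Lrp1b, Grik1), which had 63.9 and 69.5% of the adipocyte marker level, had ratios of 1.03 and 0.973.

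**Figure D3:**
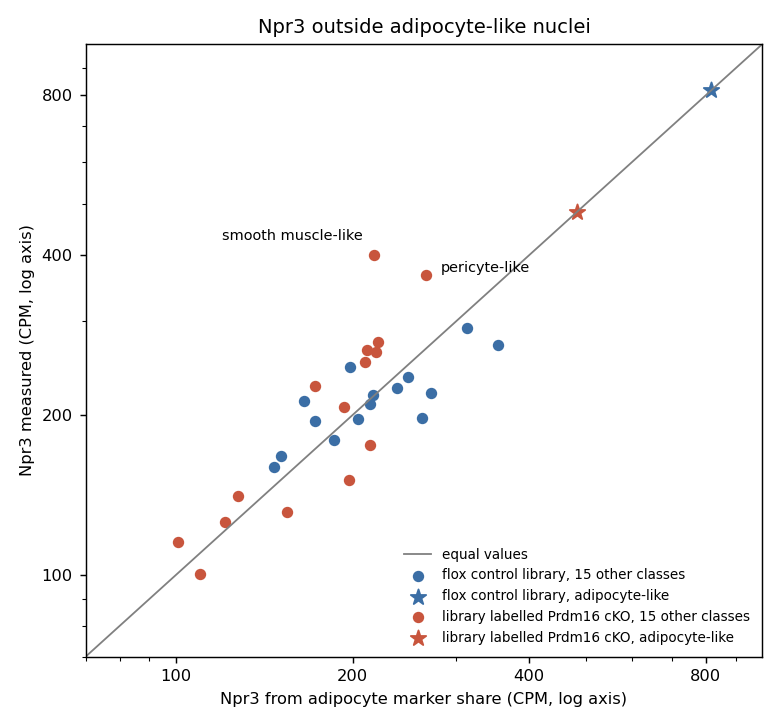
Measured Npr3 level against the level computed from the adipocyte marker share of each class (both CPM, logarithmic axes); small points are the 15 classes other than adipocyte-like, stars the adipocyte-like class (on the line by construction), blue the flox control and red the library labelled Prdm16 cKO. Most points lie near the line of equal values, and cKO-labelled smooth muscle-like nuclei stand highest above it (400.5 CPM measured, 217 CPM computed).

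The mural classes were small, with 74 control and 42 cKO-labelled pericyte-like nuclei and 66 and 35 smooth muscle-like nuclei. Median depth was 3772 and 4260.5 UMIs in pericyte-like nuclei. In smooth muscle-like nuclei it was 6003 UMIs in the control and only 3242 with the cKO label. All 8 pericyte markers had a UMI in control pericyte-like nuclei and all but Higd1b in the cKO-labelled ones, with summed levels of 3690 and 3101 CPM. All 9 smooth muscle markers had a UMI in smooth muscle-like nuclei of both libraries, but their summed level was 11012 CPM with flox alone and 5457 CPM with the cKO label. The adipocyte markers moved the other way: they stood at 33.3% of their adipocyte-like level in control and 55.5% in cKO-labelled pericyte-like nuclei, and at 20.2% and 45.1% in smooth muscle-like nuclei, with all 10 detected in each. With the adipocyte-like profile subtracted in proportion to the markers, the log2 ratios of Prkg1, Gucy1a1, Gucy1a2 and Gucy1b1 were -0.28, -0.021, -0.082 and 0.15 in pericyte-like nuclei. In smooth muscle-like nuclei they were -0.61, -0.52, 1.23 and 0.47. What remained was not rescaled to a common total, and these genes are low in adipocyte-like nuclei, so the subtraction could change their ratios little. How far the differing adipocyte marker shares bear on the ratios was not tested. The part of the lower smooth muscle markers was not tested.

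Npr3 stood higher in the mural nuclei of the cKO-labelled library, opposite to adipocyte-like nuclei. Pericyte-like nuclei held 219.7 CPM (172 to 276) with flox alone and 366 CPM (295 to 450.0) with the cKO label (log2 ratio 0.74, 0.28 to 1.20). Smooth muscle-like nuclei held 212 CPM (174 to 256) and 400.5 CPM (310.4 to 509) (log2 ratio 0.92, 0.46 to 1.37). Few nuclei carried these sums: 1 cKO-labelled nucleus gave 38.8% of the smooth muscle-like UMIs and 1 control nucleus 23.9%, and 1 cKO-labelled nucleus gave 31.9% of the pericyte-like UMIs. As a mean over nuclei of each nucleus's own CPM, the smooth muscle-like log2 ratio was -0.10. With the adipocyte-like profile subtracted in proportion to the markers, and the rest not rescaled, it was 1.97. The pericyte-like log2 ratio was 0.23 when each library was clustered on its own. The share of nuclei with an Npr3 UMI was 58.1% and 64.3% in pericyte-like nuclei. It was 65.2% and 34.3% in smooth muscle-like nuclei, where the cKO-labelled nuclei were less deep. Thinned to 1000 UMIs, 11 of 74 and 12 of 40 pericyte-like nuclei had one, and 13.8% and 11.4% of smooth muscle-like nuclei, beside 22.1% and 9.94% of B cell-like nuclei. In smooth muscle-like nuclei the shares go against the CPM, so no order is read from them, and the thinned control shares of both mural classes lay below that background.

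Npr1 and Npr2, the receptors that make cyclic GMP, had few UMIs in the small mural classes. Npr1 had 3 UMIs in each library in pericyte-like nuclei and 4 and 1 in smooth muscle-like nuclei. Npr2 had 10 and 5 UMIs in pericyte-like nuclei, or 29.7 CPM (14.2 to 54.6) and 20.1 CPM (6.54 to 47.0), and 9 and 5 in smooth muscle-like nuclei. The pericyte-like Npr2 level was 68.3% and 50.2% of that in its highest class. A difference between libraries was not detectable at this depth for either gene.

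Prkg1 had a UMI in all 74 control and 97.6% of cKO-labelled pericyte-like nuclei, and in 95.5% and 97.1% of smooth muscle-like nuclei. It stood at 5225 CPM (4983 to 5475) in control and 4334 CPM (4078 to 4600) in cKO-labelled pericyte-like nuclei, and at 7042 CPM (6814 to 7275) and 4638 CPM (4318 to 4976) in smooth muscle-like nuclei. Pericyte-like nuclei thus had 67.1-fold and 62.4-fold the level of adipocyte-like nuclei of the same library. The log2 ratio between libraries was -0.27 (-0.38 to -0.16) in pericyte-like nuclei and -0.60 (-0.72 to -0.49) in smooth muscle-like nuclei, where the smooth muscle markers were lower too. With nuclei thinned to 1000 UMIs these ratios were 0.10 and -0.43. The 3 genes with patterns most like Prkg1 were Phldb2, the actin-binding caldesmon gene Cald1 and Lhfp, with correlations of 0.92, 0.91 and 0.91 over the same 32 points. Prkg1 is the longest of the 7 genes, 1200.5 kb on the minus strand at chr19:30564489-31765033, and holds the antisense gene Cstf2t, so its level is not compared with those of the other genes.

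All 3 soluble guanylyl cyclase genes were high in pericyte-like nuclei and differed there by less than their counting error. Gucy1a1 stood at 457 CPM (388 to 535) with flox alone and 451 CPM (371 to 543) with the cKO label. Gucy1a2 stood at 876 CPM (779 to 982) and 829.7 CPM (720.2 to 951). Gucy1b1 stood at 297 CPM (242 to 361) and 330.3 CPM (263 to 409.9). The log2 ratios were -0.02 (-0.38 to 0.34), -0.08 (-0.34 to 0.18) and 0.15 (-0.29 to 0.59). With nuclei thinned to 1000 UMIs they were -0.11, 0.44 and 0.81. The thinned ratios rest on fewer UMIs and have no interval, so no difference is read from them. UMIs of both Gucy1a1 and Gucy1b1, the alpha and beta chains of 1 enzyme, were found in the same nucleus in 47.3% of control and 47.6% of cKO-labelled pericyte-like nuclei. That share was 0.248% and 0.238% in adipocyte-like nuclei, which were deeper, and 0 of 299 and 0 of 164 in B cell-like nuclei.

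In smooth muscle-like nuclei Gucy1a2 was past 1.5-fold higher with the cKO label, and Gucy1a1 and Gucy1b1 had intervals that held 0. Gucy1a1 stood at 298 CPM (252 to 349) with flox alone and 209 CPM (146 to 291) with the cKO label (log2 ratio -0.51, -1.08 to 0.03). Gucy1a2 stood at 270.4 CPM (227 to 319) and 634 CPM (519 to 766) (log2 ratio 1.23, 0.85 to 1.60), the largest ratio of the 5 members with at least 50 UMIs in each mural class. One cKO-labelled nucleus gave 21.7% of these Gucy1a2 UMIs, and without the top nucleus of each library the levels were 265 and 542 CPM. With nuclei thinned to 1000 UMIs the log2 ratio of Gucy1a2 was 0.21 and that of Gucy1a1 0.31, on fewer UMIs and without an interval. Gucy1b1 stood at 103 CPM (77.2 to 135) and 143 CPM (91.9 to 213) (log2 ratio 0.48, -0.28 to 1.20).

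Counted over members with at least 50 UMIs, 0 of 5 were past 1.5-fold lower and 1 past it higher in pericyte-like nuclei, where 11.3% and 11.4% of all genes tested were. In smooth muscle-like nuclei 1 of 5 was past it lower and 2 higher, where 16.4% and 15.2% of all genes were; counting error is large in classes of so few nuclei. Trimmed-mean (TMM) scaling, with a log2 factor of 0.20 in this class, lowered every smooth muscle-like ratio by that amount. It took Prkg1 to -0.80 and Gucy1a1 to -0.70, so that 4 members were past 1.5-fold in either direction.

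**Figure D4:**
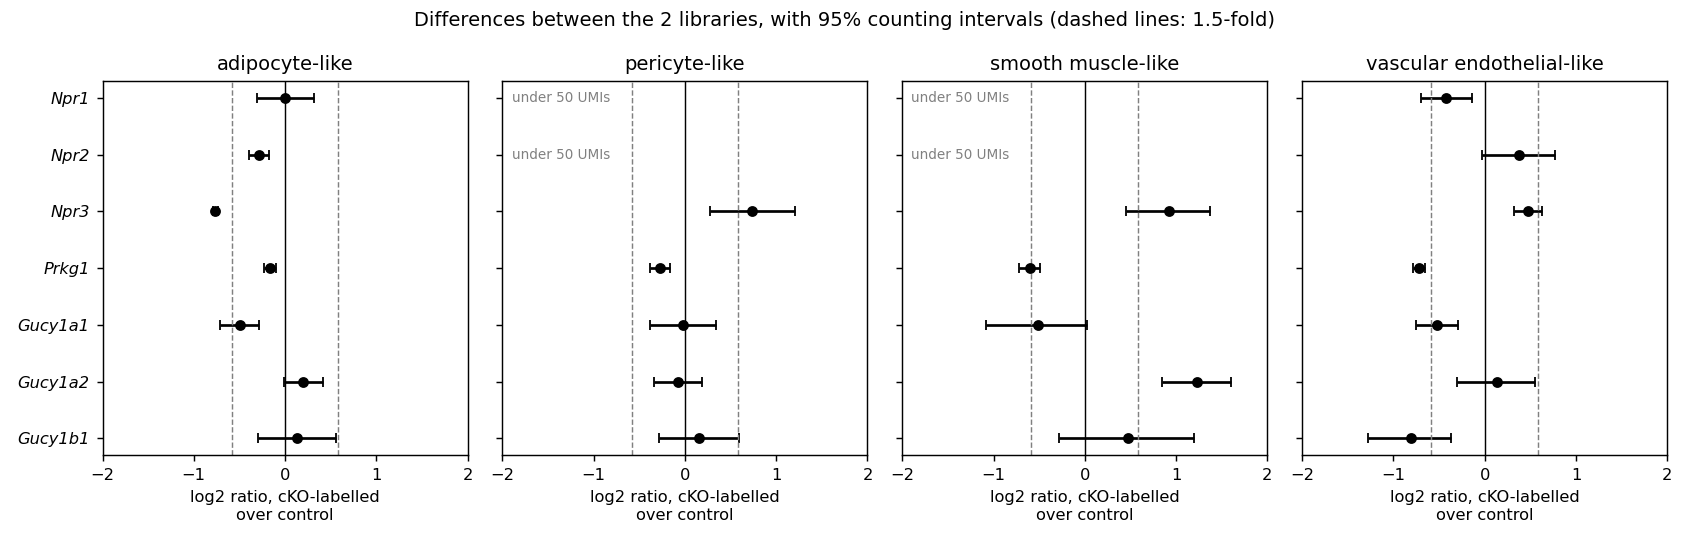
Log2 ratio of the library labelled Prdm16 cKO over the flox control for each gene in 4 classes, with 95% counting intervals; dashed lines mark 1.5-fold, and genes with under 50 UMIs over both libraries are not plotted. Npr3 lies to the left of 0 in adipocyte-like nuclei (-0.76) and to the right in the other 3 classes (0.74, 0.92 and 0.48), though not in each vascular endothelial-like cluster.

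Gucy1b1 and Gucy1a1 are neighbours on chromosome 3. Gucy1b1 lies at chr3:82032006-82074689 and Gucy1a1 at chr3:82092427-82145789, both on the minus strand, with 17.7 kb and 0 annotated genes between them (mm10, GENCODE M21). Their sequences before the start are shown because the beta chain and this alpha chain form 1 enzyme and were compared class by class. The 250 bases before the RefSeq start of Gucy1b1 (chr3:82074712-82074961, GRCm38.p6) and the 111 bases of the Gucy1a1 window that lie outside the annotated gene (chr3:82145790-82145900) are given on the minus strand, with the GC box GGGCGG in capitals.

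Gucy1b1: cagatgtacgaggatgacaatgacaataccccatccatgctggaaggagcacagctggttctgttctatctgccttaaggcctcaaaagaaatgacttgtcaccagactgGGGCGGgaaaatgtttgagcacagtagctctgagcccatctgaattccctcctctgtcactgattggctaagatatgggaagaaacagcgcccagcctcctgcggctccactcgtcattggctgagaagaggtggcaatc

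Gucy1a1: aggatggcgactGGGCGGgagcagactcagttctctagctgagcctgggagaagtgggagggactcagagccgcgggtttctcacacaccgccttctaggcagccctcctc

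Each sequence held 1 GC box, and neither held a CArG box, a TATA box or an exact DR1 element. A GC box was found for 5 of the 7 members (Gucy1a1, Gucy1a2, Gucy1b1, Npr1 and Prkg1). By window this was 6 of their 9, beside 32.7% of all windows, and another Gucy1a1 window, not shown, held none.

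Despite their place side by side, the alpha 1 and beta 1 genes did not keep to the same classes. In lymphatic endothelial-like nuclei Gucy1b1 stood at 332 CPM (300.4 to 366) with flox alone and 318 CPM (277 to 363) with the cKO label, as high as in pericyte-like nuclei, and Gucy1a1 at 271 CPM (243 to 302) and 188 CPM (156 to 223). In mesothelial-like nuclei Gucy1a1 stood at 105 CPM (97.5 to 113) and 114 CPM (103 to 126), which is 22.99% and 25.3% of its own pericyte-like level. Gucy1b1 stood there at 6.095 CPM (4.37 to 8.27) and 6.75 CPM (4.23 to 10.2), or 2.05% of its own pericyte-like level in both libraries. Fibroblast-like nuclei held Gucy1a2, at 237 CPM (226 to 248.6) and 224 CPM (212 to 237), with Gucy1b1 at 10.5 CPM (8.30 to 13.2) and 6.61 CPM (4.60 to 9.19). Across the 32 points the correlation of Gucy1a1 with Gucy1b1 was 0.84 and that of Gucy1a2 with Gucy1b1 0.85. The genes most like Gucy1b1 were Angpt2, the angiopoietin 2 gene, Shc3 and Dock6, all highest in lymphatic endothelial-like nuclei, and those most like Gucy1a1 included Gm14964 and the smoothelin gene Smtn. For Gucy1a2, at chr9:3532778-3894736 on the plus strand, they were Lhfp, Cacna2d1 and B130024G19Rik.

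The vascular endothelial-like class held the highest or near-highest Npr1 level, 89.5 CPM (80.2 to 99.6) in 576 control nuclei and 66.9 CPM (57.0 to 78.1) in 363 cKO-labelled nuclei. Mesothelial-like nuclei stood at 74.8 CPM (68.4 to 81.6) and 70.3 CPM (61.5 to 80.03), with overlapping intervals, and fibroblast-like nuclei at 61.7 CPM (56.1 to 67.7) and 55.0 CPM (48.8 to 61.6). Adipocyte-like nuclei had the lowest Npr1 level of the 16 classes on the mean of both libraries, 3.67 CPM (3.20 to 4.196) and 3.68 CPM (3.103 to 4.33), and the gene counted as Gm16048 lies antisense to it. Npr1 lies at chr3:90450591-90465866 on the minus strand. The genes most like Npr1 were Tmem67, Trpv4 and Il17rd, with correlations of 0.81 to 0.79.

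Endothelial clusters differed in which members they held. Cluster 14 (Rbp7, Cd300lg, Cxcl12) had the lowest Prkg1 level of the 4, 352 CPM (318 to 390) and 225 CPM (199 to 254), against 2429.7 and 1824 CPM in cluster 21 (Nrxn3, Tgfa), 2546 and 2168 CPM in cluster 22 (Vwf, Selp) and 2016 and 1684 CPM in cluster 23 (Gja5, Sox17). Npr1 was highest in cluster 22, at 136 CPM (110 to 165) and 126 CPM (93.9 to 166). Gucy1b1 was largely found in cluster 23, at 107 CPM (87.5 to 130) and 127 CPM (92.7 to 169), whereas the other 3 clusters stood between 2.23 and 23.4 CPM. Gucy1a1 was present in cluster 23, at 222 CPM (194 to 254) and 294 CPM (241 to 356), and also in cluster 22, at 271 CPM (234 to 312) and 205 CPM (163 to 254), where Gucy1b1 had 10 and 5 UMIs.

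**Figure D5:**
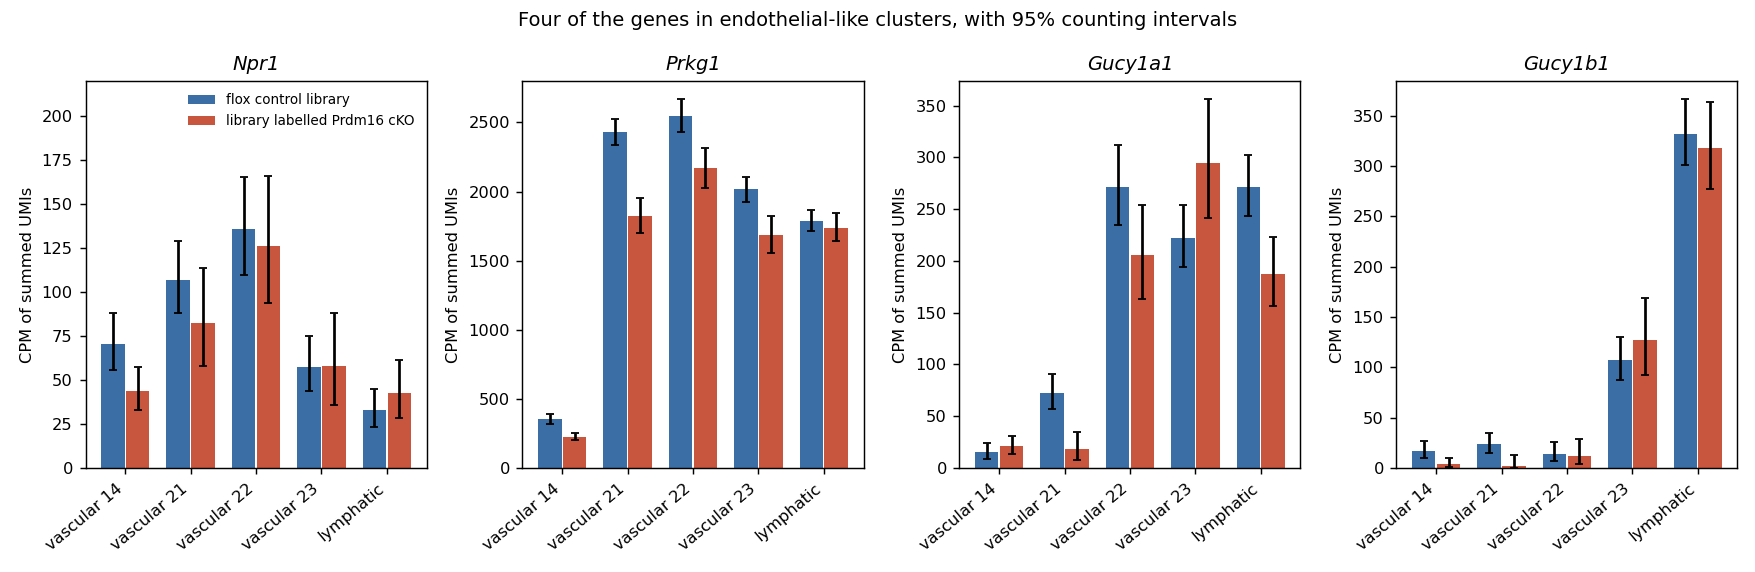
Levels of 4 genes (CPM of summed UMIs, bars from 0, each panel with its own scale) in the 4 vascular endothelial-like clusters and in lymphatic endothelial-like nuclei, with 95% counting intervals; blue bars are the flox control library and red bars the library labelled Prdm16 cKO. Gucy1b1 is high in cluster 23 and in lymphatic nuclei (332 and 318 CPM), while Prkg1 is low in cluster 14 alone of the 5.

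Over the whole vascular endothelial-like class, 2 of the 7 members were past 1.5-fold lower in the cKO-labelled library and 0 past it higher, where 6.08% and 10.4% of 9572 genes were. Prkg1 stood at 1760.1 CPM (1718 to 1803) and 1065 CPM (1025 to 1107) (log2 ratio -0.72, -0.79 to -0.66), and Gucy1b1 at 41.3 CPM (35.1 to 48.3) and 23.6 CPM (17.8 to 30.5) (log2 ratio -0.81, -1.27 to -0.36). Cluster 14 gave 39.1% of the control and 50.1% of the cKO-labelled nuclei of the class, and cluster 23 gave 19.1% and 14.05%. Inside clusters the log2 ratio of Prkg1 was -0.65, -0.41, -0.23 and -0.26 for clusters 14, 21, 22 and 23, and that of Gucy1b1 in cluster 23 was 0.24 (-0.29 to 0.76). Gucy1b1 went from 18 to 5 UMIs in cluster 14 (16.9 and 4.15 CPM), where 1 control nucleus held 10 of the 18, from 24 to 1 in cluster 21 (23.4 and 2.23 CPM) and from 10 to 5 in cluster 22 (13.98 and 12.4 CPM). Npr3 in this class stood at 197 and 274 CPM (log2 ratio 0.48, 0.32 to 0.63), with 342 and 378 CPM in cluster 14, 137 and 279 CPM in cluster 21, 164 and 131 CPM in cluster 22 and 125 and 82.6 CPM in cluster 23. One cKO-labelled nucleus gave 17.2% of the Npr3 UMIs of the class, which held 24.9% and 45.9% of the adipocyte marker level. With doublets kept, 0 members of this class were past 1.5-fold.

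Npr2 was spread over stromal and adipocyte-like nuclei. Among classes with at least 50 Npr2 UMIs, lymphatic endothelial-like nuclei stood at 43.4 CPM (32.5 to 56.8) with flox alone and 29.5 CPM (18.0 to 45.6) with the cKO label, and macrophage-like nuclei lowest, at 9.72 CPM (7.12 to 12.97) and 8.24 CPM (5.03 to 12.7). Adipocyte-like nuclei stood at 30.8 CPM (29.4 to 32.2) and 25.2 CPM (23.7 to 26.9) (log2 ratio -0.29, -0.40 to -0.17). Mpdz, Wwtr1 and Sptbn1 had the patterns most like it, with correlations of 0.81, 0.81 and 0.79. Npr2 lies at chr4:43631935-43651244 on the plus strand. Gm12473 lies antisense to Npr2, and how reads were divided between them was not checked.

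The cyclase and kinase genes were low in adipocyte-like nuclei. Gucy1a1 stood at 9.58 CPM (8.80 to 10.4) and 6.80 CPM (6.005 to 7.67) (log2 ratio -0.50, -0.71 to -0.28) that was -0.31 at the control shares of the clusters, -0.17 at the cKO-labelled shares and -0.33 from the shares alone. It was concentrated in cluster 0, at 16.2 CPM (14.6 to 18.0) and 13.1 CPM (10.8 to 15.7), while the other 4 clusters stood between 1.57 and 5.98 CPM. Gucy1a2 stood at 7.21 and 8.28 CPM and Gucy1b1 at 1.91 and 2.10 CPM, with intervals of the log2 ratio that held 0. Prkg1 had a log2 ratio of -0.17 (-0.24 to -0.10).

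Other genes of the pathway, a list of 60 ligands, enzymes, channels and kinase targets of which 59 are in the files, were counted in adipocyte-like nuclei. Of 39 with at least 50 UMIs, 4 were past 1.5-fold lower and 1 higher, beside 3.30% and 5.46% of all genes, with a median log2 ratio of -0.02. The 3 lowest were the cyclic GMP phosphodiesterase Pde9a (0.922 and 0.332 CPM, -1.47), the intestinal receptor cyclase Gucy2c (0.751 and 0.307 CPM, -1.29) and the photoreceptor phosphodiesterase subunit Pde6h (1.37 and 0.613 CPM, -1.16), all at low levels. The 3 highest were the cation channel Trpc6 (0.803 and 1.28 CPM, 0.67), Pde1c (37.1 and 53.4 CPM, 0.53) and Pde6a (8.45 and 11.6 CPM, 0.45). Among the inhibitory G protein subunits to which Npr3 couples, Gnai1 stood at 560.3 and 378 CPM (log2 ratio -0.57, -0.60 to -0.54), just short of 1.5-fold; it was singled out after its values were seen. Pde3b, the phosphodiesterase that cyclic GMP inhibits in adipocytes, stood at 2519.6 and 2108 CPM (-0.26).

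In the mural classes the most abundant genes of the list were phosphodiesterases and kinase targets or effectors. In pericyte-like nuclei 1 of 17 genes tested was past 1.5-fold lower and 3 higher, beside 11.3% and 11.4% of all genes, and the 5 most abundant were Pde3a (1315 and 1087 CPM), Pde3b (775 and 1261 CPM), Pde1a (653 and 588 CPM), the myosin phosphatase subunit Ppp1r12a (674 and 564 CPM) and the inositol trisphosphate receptor Itpr1 (591 and 463 CPM). In smooth muscle-like nuclei 7 of 19 were past it lower and 4 higher, beside 16.4% and 15.2% of all genes. The 5 most abundant there were Ppp1r12a (2490.0 and 1321 CPM), Pde3a (2066 and 1494 CPM), the potassium channel Kcnma1 (2117 and 867 CPM), Itpr1 (1033 and 867 CPM) and Pde3b (570.0 and 1058 CPM). Ppp1r12a (-0.91) and Kcnma1 (-1.29) were past 1.5-fold lower in the cKO-labelled smooth muscle-like nuclei, where the smooth muscle markers were lower as well. Lipe and Plin1, which are themselves adipocyte markers, were past it higher in both mural classes, as was Pde3b. Pde3b stood higher still in adipocyte-like nuclei of each library, and the adipocyte marker share of both mural classes was higher with the cKO label. The part of adipocyte RNA in the mural Pde3b levels was not tested.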

How the data were processed

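The deposited values are raw UMI counts for each gene in each barcode, which the authors made with Cell Ranger 6.1.2 on mm10, per the submitters' processing notes. Library chemistry (10x 3' kit v3.1) is per the labels' protocols. Not given in the sources used here: the annotation release, intron counting, strand handling and barcode filter. The sample labels (mesenteric fat, nuclear RNA) were followed where the series title and design name thoracic and abdominal fat and total RNA.

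The deposited files held 12060 control and 8086 cKO-labelled barcodes, with 108987031 and 70895490 UMIs. Nuclei with at least 500 UMIs, 300 genes and under 5% mitochondrial UMIs were kept, which removed 449 and 217 barcodes. Scrublet (scanpy 1.11.5) marked 0.0603% and 0.0254% of nuclei, under the preset 0.5%, so the highest scores were removed at 0.8% per 1000 nuclei (1079 and 495 nuclei). Both libraries were clustered together on 2000 variable genes, without the 7 members and the pathway list, with 30 principal components, 20 neighbours and the Leiden algorithm (leidenalg 0.10.2) at resolution 1.0, and no batch integration. Classes were named from 20 marker sets. A name needed at least 3 markers with 5% detection and a mean level 2 times that elsewhere. Cluster 4, with 1 such marker, stayed unnamed (415 and 962 nuclei, medians of 2044 and 2029 UMIs). Names are rebuilt here, and differences from other accounts may come from that.

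Levels have exact Poisson intervals, shares exact Clopper-Pearson intervals, and log2 ratios exact conditional binomial intervals (scipy 1.17.1). Only the ratio intervals were checked on simulated counts, which held counting error alone and no spread between nuclei. A gene counts as past 1.5-fold with at least 50 UMIs over both libraries. The expected Npr3 level outside adipocyte-like nuclei is the adipocyte-like level times the summed level of the 10 adipocyte markers relative to adipocyte-like nuclei. Genes named are the 7 members in all classes, the 3 highest and 3 lowest ratios of the pathway list in adipocyte-like nuclei, its 5 most abundant genes in each mural class, and the 3 genes with the highest Pearson correlation of log2(CPM + 1) with each member among genes with at least 20 CPM in 1 point. Outside these rules, Tshr, Peg3, Nnat, Adipoq, Elovl6 and Acly in adipocyte-like clusters were taken from a longer hand-made list. Gnai1 and Pde3b in adipocyte-like nuclei, and Lipe and Plin1 in mural nuclei, were also named outside them. The members and lists were chosen with earlier results of these data known. Alternatives changed doublets, resolution, variable genes, joint clustering, depth, averaging, scaling, free RNA, mitochondrial filter, fold and minimum count. Positions are GENCODE M21 on GRCm38, the assembly behind mm10, and sequences are RefSeq's (GRCm38.p6), found for 7 of 7 members. Some genes that these rules name are not reported here.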

Additional observations from a re-analysis of the deposited data

How the results depend on the processing

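No paired analysis was possible because each genotype had 1 library, so no replicate could be left out either. Of 226 values recomputed under alternatives, 176 moved by less than the counting interval, or 1.5 times for a count, 48 moved further and 2 reversed, which is said only of ratios whose interval excluded 0; the cause was not tested. The 2 that reversed were Prkg1 in pericyte-like nuclei thinned to 1000 UMIs (0.10) and Npr3 in smooth muscle-like nuclei as a mean of CPM per nucleus (-0.10). All values below are log2 ratios unless called counts, which are members past the fold in either direction. With doublets kept, Npr3 was -0.91 in adipocyte-like nuclei, -0.25 in cluster 1 and -0.94 in cluster 3, Prkg1 was -0.082 in pericyte-like nuclei, and the pericyte-like and vascular endothelial-like counts were 0 and 0. With members and pathway genes allowed to define clusters, Npr3 was -0.93 in cluster 8 and the pericyte-like count was 0. With each library clustered on its own, Npr3 was 0.23 in pericyte-like nuclei and the pericyte-like count was 0. With mitochondrial UMIs under 2%, Npr3 was -0.32 in cluster 0 and -0.49 in the best match of clusters 3 and 8, and the vascular endothelial-like count was 4.

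With nuclei thinned to 1000 UMIs, Npr3 was -0.80 in adipocyte-like nuclei, and -0.66, -0.27, -0.40 and -1.04 in clusters 0, 1, 5 and 8. In thinned pericyte-like nuclei Gucy1a2 was 0.44 and Gucy1b1 0.81, and in thinned smooth muscle-like nuclei Prkg1 was -0.43, Gucy1a1 0.31 and Gucy1a2 0.21. The thinned counts were 2 in adipocyte-like, 2 in pericyte-like and 1 in smooth muscle-like nuclei. For them the minimum of 50 UMIs was applied before thinning, and the thinned ratios have no interval. As means of CPM per nucleus, Prkg1 was -0.023, Gucy1a1 0.36 and Gucy1a2 0.18 in pericyte-like nuclei, Prkg1 was -0.41 and Gucy1a2 0.74 in smooth muscle-like nuclei, and Npr3 was -0.65 in cluster 0, with counts of 2, 0 and 1 in adipocyte-like, pericyte-like and vascular endothelial-like nuclei. TMM scaling gave -0.80 for Npr3 in adipocyte-like nuclei, -0.79 in cluster 0, and -0.80 for Prkg1 in smooth muscle-like nuclei. With the adipocyte-like profile subtracted and the rest not rescaled, Npr3 was 1.97 in smooth muscle-like nuclei. It could not be computed in pericyte-like nuclei, where the control level was below the part subtracted. Of ratios whose interval held 0, Gucy1a1 kept its sign in 8 of 12 alternatives in pericyte-like and 11 of 12 in smooth muscle-like nuclei, and Gucy1a2 in 8 of 12 in pericyte-like nuclei. At a lower fold threshold the counts were 2 in adipocyte-like, 5 in smooth muscle-like and 6 in vascular endothelial-like nuclei, and at 2-fold they were 0, 1 and 0, with 0 in pericyte-like nuclei, where a minimum of 200 UMIs also gave 0. Leaving out the nucleus with the most UMIs, and nuclei with 2% mitochondrial UMIs or more within the same clusters, were alternatives chosen after seeing the data. Npr3 in adipocyte-like nuclei ranged from -0.91 to -0.75 over its alternatives. Depth limits Npr1 and Npr2 in mural nuclei, where neither gene reached 50 UMIs.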
